A study of Mus musculus with 2 samples.

Results

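The miR-29 family comprises 4 hairpin loci in the mouse genome, Mir29a, Mir29b-1, Mir29b-2 and Mir29c. They were taken by gene ID from the 1973 miRNA genes counted in embryonic mouse heart, and all 4 had a row in the count tables. The study profiled small RNAs, in a size class under 30 nt, from hearts of strain B6NCrl embryos at embryonic day 11.5. Its only group has 2 libraries, labelled as biological replicates 1 and 2, from separate pools of healthy male and female embryos. Hearts of 109 embryos were pooled for replicate 1, while the labels give no embryo number for replicate 2. No treatment, mutant or second stage was part of the design, and nothing in the labels says that the pools came from separate litters, so the spread between the libraries may be partly technical. Each library is a bulk sample, in which fewer cells of a type and less RNA per cell cannot be told apart. Values are reads on the gene's own strand, scaled to counts per 1000000 (CPM) of all such reads on miRNA genes in that library.

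A microRNA is cut from a hairpin precursor, and 1 arm of the hairpin usually becomes the guide that Argonaute proteins carry to messenger RNAs. The guide finds its targets mainly through its seed, bases 2 to 8 from its 5′ end. The 3p arms of miR-29 are known for repressing messenger RNAs of the extracellular matrix, among them fibrillar collagens, elastin and fibrillin. In the adult heart, miR-29 is known as a brake on fibrosis that is more abundant in fibroblasts than in cardiac muscle cells.

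The mature 3p sequences show what the 4 loci share and where they part, and they decide which loci a short read can be assigned to. They are given 5′ to 3′ from RefSeq on build GRCm38.p6, with the seed in capitals.
miR-29a-3p: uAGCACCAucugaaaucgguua
miR-29c-3p: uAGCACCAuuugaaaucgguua
miR-29b-3p: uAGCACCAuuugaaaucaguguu

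All 4 loci have the seed AGCACCA in the 3p arm. Of 1674 different mature mouse sequences in the RefSeq table, 3 had this seed, and these were the 3 printed above. Counted from 1 at the 5′ end, miR-29a-3p and miR-29c-3p, both 22 bases long, differed by the single substitution C10U. From miR-29c-3p to miR-29b-3p the substitutions were G18A, U21G and A22U, and miR-29b-3p had 1 more base at its 3′ end. The last 6 bases of miR-29b-3p, AGUGUU, have been described as a signal that takes the molecule to the nucleus in cultured cells. Mir29b-1 and Mir29b-2 carry the same miR-29b-3p, so a read of the whole 3p arm matches both loci and cannot be assigned to 1 of them by its sequence.

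The other arms differ more, which is why they are shown too, with their own bases 2 to 8 in capitals.
miR-29a-5p: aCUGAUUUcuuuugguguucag
miR-29c-5p: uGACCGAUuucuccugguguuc
miR-29b-1-5p: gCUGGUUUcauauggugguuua
miR-29b-2-5p: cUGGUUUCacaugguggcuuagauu

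The 5p arms of Mir29b-1 and Mir29b-2 start 1 base apart. Set side by side at that shift, 19 of 21 bases were identical, and the shift gives the arms different seeds. For miR-29a-5p and miR-29c-5p, 17 of 20 bases were identical at a shift of 2 bases. The tables count reads per hairpin, so reads of the 5p and 3p arms cannot be told apart in any value below.

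The whole hairpins show how much of each locus is its own. Mature arms are in capitals.
Mir29a: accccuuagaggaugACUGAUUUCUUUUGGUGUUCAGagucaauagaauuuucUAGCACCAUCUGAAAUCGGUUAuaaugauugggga
Mir29c: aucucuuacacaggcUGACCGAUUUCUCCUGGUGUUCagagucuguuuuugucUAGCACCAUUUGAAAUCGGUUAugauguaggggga
Mir29b-1: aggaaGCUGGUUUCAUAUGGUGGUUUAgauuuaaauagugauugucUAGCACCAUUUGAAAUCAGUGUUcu
Mir29b-2: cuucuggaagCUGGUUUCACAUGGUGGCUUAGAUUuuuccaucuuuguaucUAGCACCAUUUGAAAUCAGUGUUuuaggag

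Stretches of 18 bases were compared with every other mouse hairpin in the RefSeq set. Of the 71 such stretches in Mir29a, 0 recurred in another hairpin. In Mir29c 5 of 71 recurred, all in the Mir29b hairpins. In Mir29b-1 11 of 54 recurred and in Mir29b-2 8 of 64 recurred, in each case in the other Mir29b hairpin or in Mir29c. By exact matches of this length, Mir29a is therefore the locus least open to shared reads, and the Mir29b loci are the most open. Matches with a mismatch were not searched, and miR-29a-3p differs from miR-29c-3p by a single base.

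The loci form 2 pairs on separate chromosomes, each with 1 Mir29b hairpin. On GRCm38, Mir29a (ENSMUSG00000065610.1) lies on the minus strand of chromosome 6 from 31062660 to 31062747, outside other annotated genes. Mir29b-1 (ENSMUSG00000065604.1) lies on the same strand from 31063023 to 31063093, 275 bases away, and 2 of its bases overlap an exon of the long intergenic RNA gene Gm27019. Mir29b-2 (ENSMUSG00000065412.2) lies on the plus strand of chromosome 1 from 195037040 to 195037120, and Mir29c (ENSMUSG00000065548.1) follows it from 195037547 to 195037634, after a gap of 426 bases. Both of these hairpins lie whole within an exon of the noncoding gene A330023F24Rik on the same strand, and within an exon of Cd46, a complement regulator gene, on the opposite strand. Reads on the strand opposite to the miR-29 hairpins numbered 0 at all 4 loci in both libraries.

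Mir29a was the leading member. It had 9048 reads in replicate 1 and 1078 in replicate 2, which is 490 CPM (exact 95% Clopper-Pearson interval 480 to 500.1) and 534 CPM (503 to 567), or 512 ± 31 CPM (SD, n = 2). Mir29c had 2668 and 403 reads, which is 144 CPM (139 to 150.1) and 200 CPM (181 to 220.3), or 172 ± 39 CPM. Mir29a stood above Mir29c in both libraries, and their intervals did not come near each other.

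The Mir29b loci were counted at a far lower level. Mir29b-1 had 58 reads in replicate 1 and 7 in replicate 2, which is 3.14 CPM (2.38 to 4.06) and 3.47 CPM (1.40 to 7.15), or 3.31 ± 0.23 CPM. Mir29b-2 had 32 reads and 1 read, which is 1.73 CPM (1.19 to 2.45) and 0.496 CPM (0.0126 to 2.76). The single read of replicate 2 is below the 1.49 CPM that a count of 0 allows in that library (3 counts of 2017294), so Mir29b-2 is not told apart from absence there. In replicate 1, with 18467499 counts in all, a count of 0 allows 0.162 CPM, and both Mir29b loci stood above it. Intervals and limits cover counting error only.

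**Figure D1:**
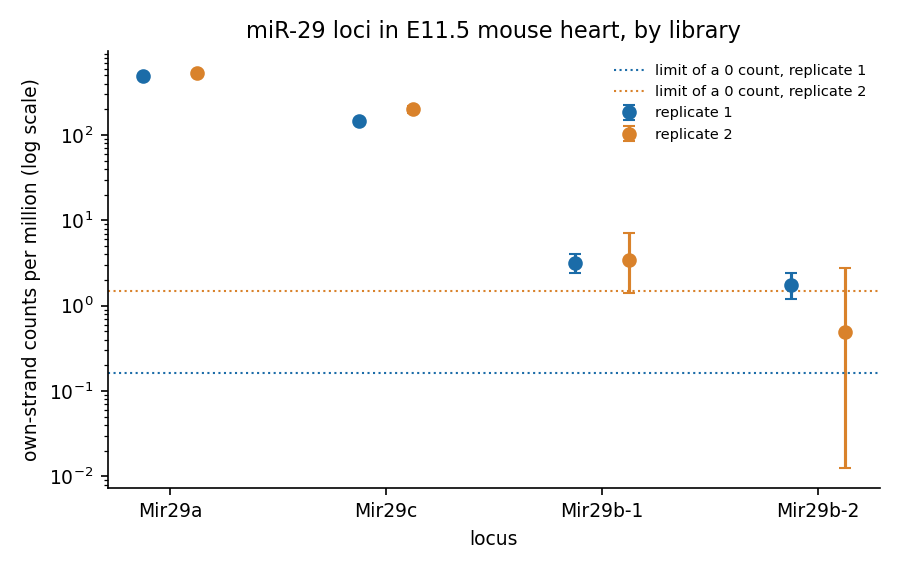
Own-strand CPM (log scale) of the 4 miR-29 loci in replicate 1 and replicate 2, with exact 95% Clopper-Pearson intervals, which are smaller than the points for Mir29a and Mir29c. Dotted lines mark what a count of 0 allows, 0.162 CPM in replicate 1 and 1.49 CPM in replicate 2. Mir29a and Mir29c lie above 100 CPM in both libraries, and both Mir29b loci lie under 4 CPM.

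Together the 4 loci took 0.0689% ± 0.0070 of miRNA counts (SD, n = 2), with 0.0639% in replicate 1 (exact interval 0.0628 to 0.0651%) and 0.0738% in replicate 2 (0.0701 to 0.0777%). Mir29a supplied 76.6% of the family's counts in replicate 1 and 72.4% in replicate 2, and Mir29c supplied 22.6% and 27.1%. The Mir29b loci together supplied 0.762% (0.613 to 0.936%) and 0.537% (0.232 to 1.06%). The family as counted thus consisted almost wholly of the 2 members whose mature sequences occur in a single annotated hairpin. Matches outside the annotated hairpins were not searched.

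A gene counted as detected when each library had it at 1 CPM or more, which 3 of the 4 members did, against 21.2% of the 1973 counted genes (419 genes). Mir29b-2 missed it in replicate 2. By mean CPM, Mir29a ranked 109, Mir29c 169, Mir29b-1 362 and Mir29b-2 447. The order Mir29a, Mir29c, Mir29b-1, Mir29b-2 was the same in both libraries, with ranks of 109, 181, 369 and 411 in replicate 1 and of 107, 156, 353 and 478 in replicate 2.

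**Figure D2:**
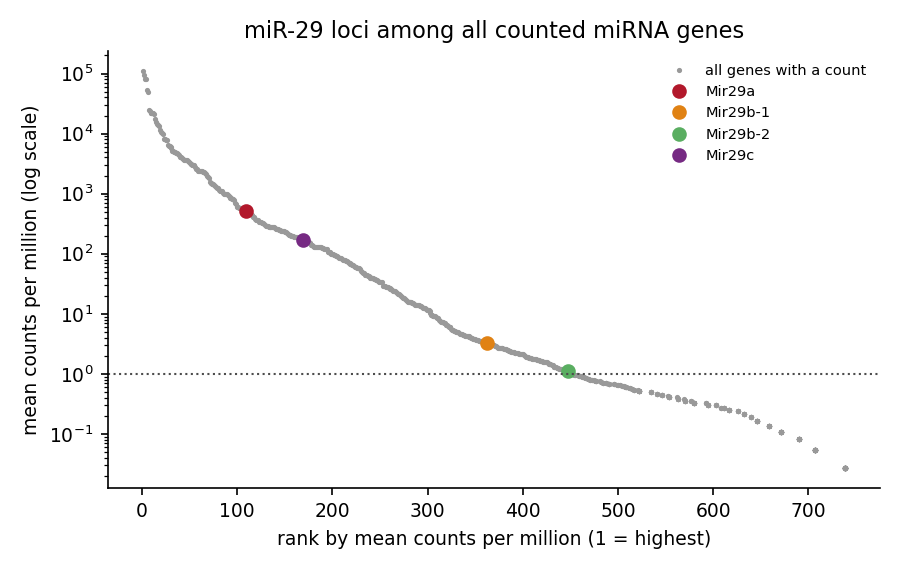
Mean CPM (log scale) against rank for all miRNA genes with at least 1 count (grey), with the 4 miR-29 loci in colour and a dotted line at 1 CPM. Of the 783 genes drawn, Mir29a (rank 109) and Mir29c (rank 169) lie in the upper part of the curve. Mir29b-1 (rank 362) and Mir29b-2 (rank 447) lie near its middle by rank.

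The genes nearest in level were found by the mean absolute difference in log2(CPM + 1) over the 2 libraries. With 2 libraries this measures likeness of level and not of a pattern across conditions. Nearest to Mir29a were Mir370, at 487 and 523 CPM in replicates 1 and 2 (difference 0.02), and Mir455, at 496 and 551 CPM (0.03). Nearest to Mir29c were Mir539, at 144 and 168 CPM (0.13), and Mir101a, at 153 and 167 CPM (0.17). Mir29c had no neighbour as close as those of Mir29a, since it was higher in replicate 2 than genes that matched it in replicate 1. Mir6399, with the same 58 and 7 reads, and Mir211, with 61 and 7, were nearest to Mir29b-1.

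Ratios between loci were then taken within each library. To count as larger than the spread, a ratio had to go the same way in each library with an exact binomial interval that excluded equality, and its mean log2 value had to exceed the SD. Of 6 ratios set up in this way, 6 met the rule. Loci with many reads at different levels meet it easily, and how many other pairs of genes would do so was not counted. The 6 ratios also reuse the same loci, so their number is not a result about miR-29. A p across 2 libraries is not given, since a two-sided exact sign-flip test could not go below 0.5. The ratios compare counts, and how evenly different miRNAs are captured and read was not tested.

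Mir29a exceeded Mir29c 3.39-fold in replicate 1 (interval 3.25 to 3.54) and 2.67-fold in replicate 2 (2.38 to 3.01). The mean log2 ratio was 1.59 ± 0.24 (SD, n = 2). The direction was shared, but the intervals of the 2 libraries did not overlap, so the size of the excess differed between the libraries by more than counting error. Summing each pair of neighbours gave nearly the same picture, with the chromosome 6 pair above the chromosome 1 pair by a log2 ratio of 1.59 ± 0.23, since the Mir29b loci add little to either sum.

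Within each pair, the Mir29b hairpin was far below its neighbour. Mir29a exceeded Mir29b-1 by 156-fold in replicate 1 (121 to 206) and 154-fold in replicate 2 (74.5 to 384), a mean log2 ratio of 7.28 ± 0.01. Mir29c exceeded Mir29b-2 by 83.4-fold in replicate 1 (58.9 to 122). In replicate 2 the ratio was 403 and rests on 1 read of Mir29b-2, with an interval of 71.9 to 15957. The mean log2 ratio of this second pair was 7.52 ± 1.61, and its SD rests on that 1 read. Mir29b-1 against Mir29b-2, a ratio added after the values were seen, was 1.81 in replicate 1 (1.16 to 2.88) and 7 in replicate 2 (0.899 to 315), with a mean log2 ratio of 1.83 ± 1.38. It did not meet the rule, because the interval of replicate 2 includes equality.

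These gaps were set beside those of other neighbouring hairpins, in a comparison also added after the values were seen. In all, 81 pairs of neighbouring hairpins lay within 1000 bases on 1 strand with the higher at 100 CPM or more. The higher exceeded the lower by a median of 18.3-fold in mean CPM, and in 21 of the 81 pairs, the miR-29 pair on chromosome 6 included, by at least as much as Mir29a exceeded Mir29b-1. In 7 of these 21 the lower hairpin had no read in either library. Many of the 21 had a lower hairpin without a mature sequence in the RefSeq table, and some hairpins stood in more than 1 pair. Mir302d over Mir367, Mir99a over Mirlet7c-1 and Mir20a over Mir19b-1, named after their values were seen, were further apart. In 15 of the 81 pairs the lower hairpin had a mature sequence found in another gene, and the median there was 27.8-fold. Of those 15, 4 reached the fold of the chromosome 6 pair, that pair included.

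The counts of the Mir29b loci have to be read with the shared 3p arm beside them. Reads that map to several places stood in a separate row of the deposited tables and on no gene. They made up 20.8% of all reads in replicate 1 and 24.1% in replicate 2. How many of them were miR-29b-3p was not tested, so the Mir29b counts are not a measure of miR-29b and are uncertain. The counted genes were grouped by whether a mature sequence occurs whole in the hairpin of another gene in the RefSeq table. Mir29a and Mir29c were among the 828 genes with no such sequence, of which 327 (39.5%) were detected. Mir29b-1 and Mir29b-2 were among the 51 genes that share some of their mature sequences, of which 38 (74.5%) were detected, with a median of 22.9 CPM over all 51. Of these 51 genes, 35 stood above Mir29b-1 and 39 above Mir29b-2. A further 37 genes shared all of their mature sequences, and 1057 had no mature sequence in the table.

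**Figure D3:**
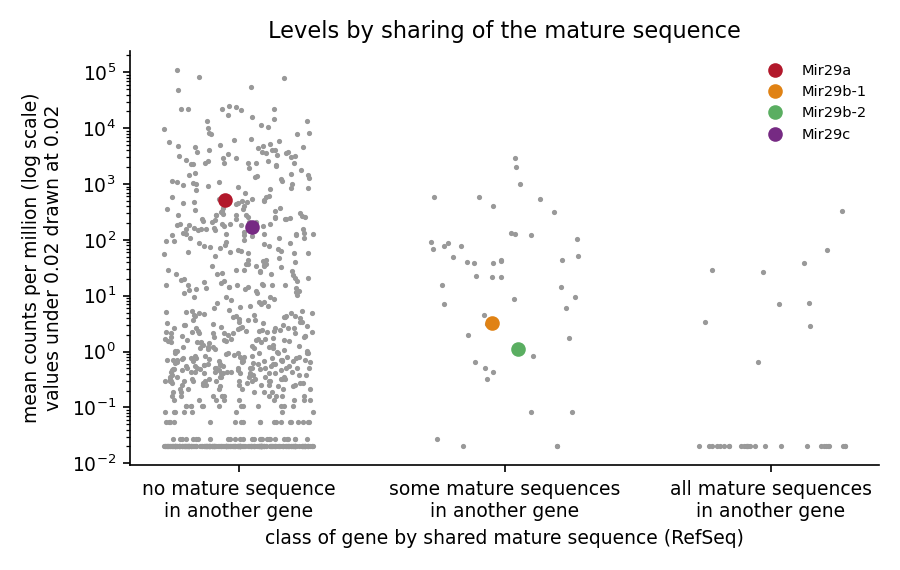
Mean CPM (log scale, values under 0.02 drawn at 0.02) of counted miRNA genes, grouped by whether none, some or all of their mature sequences occur in another gene's hairpin. Grey points are genes, spread sideways for view, and coloured points are the miR-29 loci. Mir29a and Mir29c stand at 512 and 172 CPM in the unshared class, and Mir29b-1 and Mir29b-2 at 3.31 and 1.11 CPM in the lower part of the class that shares some.

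The libraries were next compared gene by gene over the 419 detected genes, by an exact binomial test (two-sided, with the library totals as the expected split) and Benjamini-Hochberg adjustment over those genes. There is 1 library on each side, so this compares libraries and not conditions, and it allows for counting error alone. With a 2-fold minimum, 0 of the 3 detected members passed, against 2.63% of detected genes. Without a fold minimum 2 of the 3 passed, both higher in replicate 2, against 29.4% of detected genes in either direction and 14.3% higher in replicate 2. The same 2 members had an unadjusted p under 0.05.

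Mir29c stood apart the most. It was 1.38-fold higher in replicate 2 (1.24 to 1.54), a log2 ratio of 0.47, with an adjusted p of 4.64e-08 by the exact binomial test. Of the 419 detected genes, 32 had a higher log2 ratio than Mir29c. Mir29a was 1.09-fold higher (1.02 to 1.16), a log2 ratio of 0.13, with an adjusted p of 0.0282 by the exact binomial test. That call was lost with edgeR's TMM scaling (exact binomial, adjusted p = 0.0583), with DESeq2 size factors (0.0582) and when all genes with at least 1 count were tested (0.0514). The median absolute fold over all detected genes was 1.11, close to the fold of Mir29a. Mir29b-1, at 1.10-fold (0.425 to 2.42) with an adjusted p of 0.95 by the same exact test, allows changes of more than 2-fold either way. Mir29b-2, below the detection limit, was not tested with the others, and its ratio of 0.286 rests on the single read of replicate 2 (0.00703 to 1.71).

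In edgeR's exact test the common dispersion was estimated from these same 2 libraries taken as 1 group, so it already holds the differences being tested. By that test Mir29a, Mir29b-1 and Mir29c each had an adjusted p of 1. The common biological coefficient of variation was 17.7%. The median log2 ratio of the 3 detected members was 0.14, beside -0.01 over all detected genes.

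**Figure D4:**
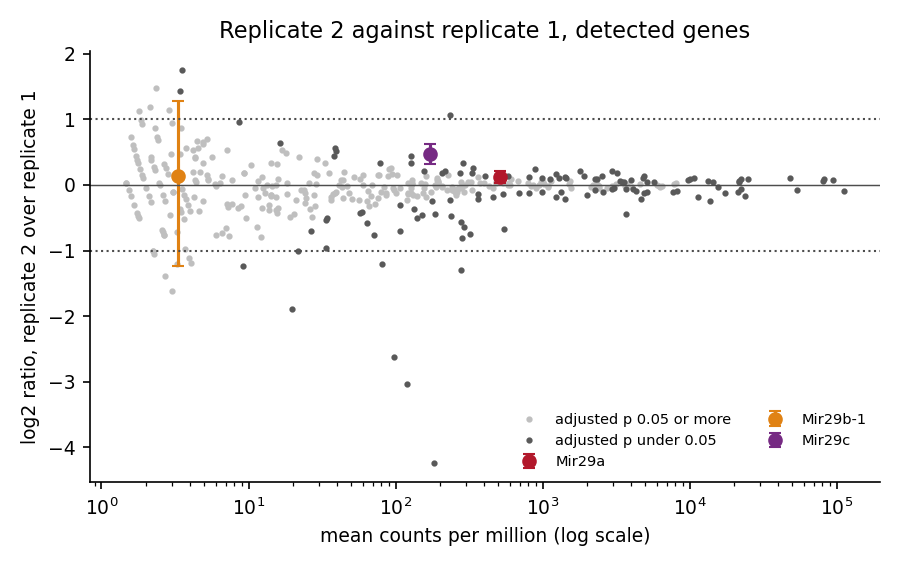
Log2 ratio of replicate 2 over replicate 1 against mean CPM (log scale) for the 419 detected genes, dark where the exact binomial test gave an adjusted p under 0.05. Coloured points are the 3 detected miR-29 loci with exact 95% intervals, the solid line marks equality and dotted lines mark 2-fold. Mir29c at 0.47 lies above most genes of its level, Mir29a at 0.13 lies near the line, and the interval of Mir29b-1 crosses both dotted lines.

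The miR-30 family, 6 loci also linked to cardiac matrix through repression of connective tissue growth factor, gave a scale for these levels. Mir30e stood at 24181 and 25766 CPM in replicates 1 and 2, Mir30a at 9814 and 10420 CPM and Mir30d at 5090 and 5240 CPM, all above Mir29a. Mir30b, at 187 and 197 CPM, stood between Mir29a and Mir29c by mean CPM, and in replicate 2 its interval (178 to 218) overlapped that of Mir29c. Summed, miR-30 took 4.07% ± 0.17 of counts and exceeded miR-29 by 61.7-fold in replicate 1 (60.6 to 62.9) and 56.7-fold in replicate 2 (53.8 to 59.7). The log2 ratio of miR-29 to miR-30 was -5.89 ± 0.09, larger than the spread. Mir30c-1 and Mir30c-2, which like the Mir29b loci share 1 mature arm, stood at 129 and 131 CPM and at 73.5 and 81.3 CPM. They lay well above Mir29b-1 and Mir29b-2 in both libraries, with intervals that did not overlap those of the Mir29b loci.

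A list of 13 other miRNAs tied to fibroblasts, matrix or cardiac fibrosis had 12 members in the table and 11 detected, and 4 stood above Mir29a. These were Mir21a, which is raised in cardiac fibrosis, at 21335 and 22210 CPM, Mir214 at 5112 and 4684 CPM, Mir101b at 2331 and 2357 CPM, and Mir145a, a smooth muscle miRNA, at 1163 and 1313 CPM. Among those below Mir29a, Mir199a-1, Mir199a-2 and Mir199b share all of their mature sequences with other genes, and Mir24-2 shares some. Mir133a-1 and Mir133a-2 had no mature sequence to check. Any of their reads that map to several places were on no gene, so their levels, and their place below Mir29a, are uncertain. Mir21a exceeded Mir29a by 43.5-fold in replicate 1 (42.6 to 44.5) and 41.6-fold in replicate 2 (39.1 to 44.2), a log2 ratio of Mir29a to Mir21a of -5.41 ± 0.05 that was larger than the spread. Without a fold minimum, 3 of the 11 detected members of this list were higher in replicate 2, against 14.3% of all detected genes. A further 1 was lower and 7 did not pass, against 29.4% of all detected genes that passed in either direction. With the 2-fold minimum 1 passed, Mir133a-1 on 30 and 11 reads, against 2.63% of all detected genes. The median log2 ratio of the 11 was 0.06.

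**Figure D5:**
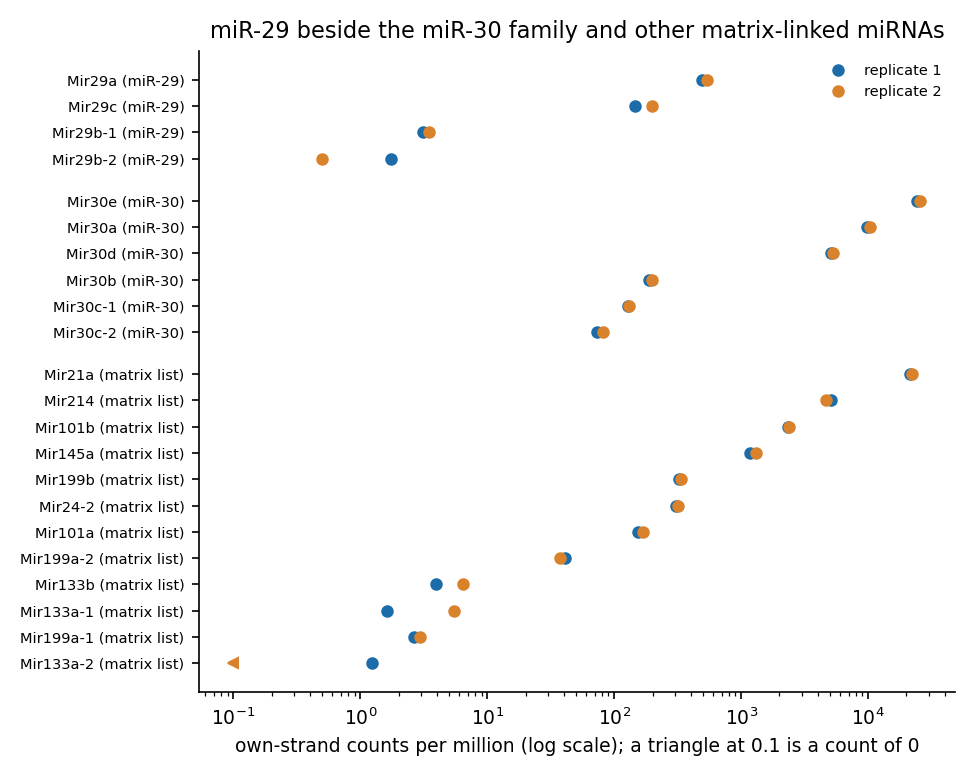
Own-strand CPM (log scale) in replicates 1 and 2 for the miR-29 loci, the miR-30 family and the list of other matrix-linked miRNAs, each ordered by mean CPM. Mir29a and Mir29c overlap the middle of both other groups, and the leading genes of those groups, Mir30e and Mir21a, lie far to the right of Mir29a.

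The tissue label was checked against fixed marker miRNAs. The cardiac muscle markers Mir208a, Mir208b, Mir499 and Mir133b were all detected and summed to 5.84% and 6.31% of counts in replicates 1 and 2. Most of that sum was Mir208b, at 46467.5 and 50210.8 CPM, while Mir133b had 3.95 and 6.44 CPM. Of the miR-1 and miR-133a genes, muscle miRNAs outside the fixed list, Mir1a-1 had 2.98 and 1.49 CPM. Mir133a-1 had 1.62 and 5.45 CPM, and Mir133a-2 had 1.25 and 0 CPM. The Mir133a genes had no mature sequence in the RefSeq table, so sharing between them was not checked. Since reads that map to several places were on no gene, these low counts are not a measure of miR-1 or miR-133a. The endothelial Mir126a took 7.95% and 8.47%, and the 4 fibroblast and mesenchyme markers, all detected, took 0.548% and 0.506%. Most of this last sum was Mir214, at 5112 and 4684 CPM. Mir199a-1, Mir199a-2 and Mir199b share all of their mature sequences with other genes, so their counts may be too low. By the exact binomial test, 29.4% of the 419 detected genes passed at any fold, 14.3% were higher in replicate 2, and 2.63% passed with the 2-fold minimum. Beside these shares, 3 of the 4 cardiac markers and Mir126a were higher in replicate 2 at any fold. Of the 4 fibroblast and mesenchyme markers 1 was lower and 0 were higher. Blood cell markers (5 of 5 detected) summed to 1352 and 1273 CPM, epithelial markers (7 of 7) to 2144 and 1488 CPM, and the liver marker Mir122 stood at 395 and 160 CPM. At any fold, all 7 epithelial markers and Mir122 were lower in replicate 2, Mir122 by more than 2-fold, and of the 5 blood cell markers 2 were lower and 1 was higher. Of the 5 neural markers that were counted, 0 were detected and 3 had no read, with sums of 1.46 and 0 CPM. Mir9-2 and Mir9-3 share all of their mature sequences with other genes, and the Mir124a genes had no mature sequence to check. Any of their reads that map to several places were on no gene, so these low counts do not show absence. The part of these cell types in the difference of Mir29c between the libraries was not tested. Replicate 1 had 9.15 times as many own-strand miRNA counts as replicate 2, from 57739404 reads in all against 4876257.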

How the data were processed

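Small RNA sequencing of 2 pooled E11.5 heart samples was used. Deposited values are the authors' raw counts of reads on each miRNA gene (mm10, GENCODE M4, per the file headers in the deposited notes); the aligner and the counter are not named there or in the labels. From their sums, the 3 unlabelled columns were read as both strands, own strand and opposite strand. The 4 summary rows stayed out of library sizes. Of all reads, 32.0% and 41.4% lay on own-strand miRNA genes in replicates 1 and 2, 38.4% and 27.5% were unmapped, and 8.77% and 7.04% lay on no gene's own strand. By gene ID, 1894 of 1973 genes matched GENCODE M21 (GRCm38), which gave symbols and coordinates. The versions of Mir29b-1 and Mir29b-2 differ between the deposited tables and M21, so their counted bounds may differ. Sequences came from RefSeq (GRCm38.p6), which holds all 4 hairpins at the M21 coordinates.

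CPM, exact intervals and exact binomial tests were computed in Python 3.11.15 with SciPy 1.17.1, thresholds being an adjusted p of 0.05 and 2-fold. Scaling and the second test used edgeR 4.0.16 (TMM, exact test) and DESeq2 1.42.0 (size factors). Besides the miR-29 loci, the text names the 2 genes nearest in level to each detected locus, the miR-30 family, the 4 highest genes of the matrix list and the markers; other genes were named after their values or sequences were seen. Members, lists and rules were chosen with earlier results of these data known. Alternatives were reads of both strands, other scalings, denominators and filters, edgeR's test, and each replicate left out.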

Additional observations from a re-analysis of the deposited data

How the results depend on the processing

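Of 72 alternative values for 17 results, 66 kept their direction or stayed within the spread. Library ratios also had to keep their side of the rule with the 2-fold minimum, which no member passed. Some alternatives could change nothing. Reads of both strands left the ratios among the miR-29 loci as they were, since these loci had no opposite-strand reads. Leaving out the Mir29b loci turned the ratio of the chromosome pairs into that of Mir29a to Mir29c. Without that minimum, Mir29a was past an adjusted p of 0.05 only with both strands (0.0248) and with the 10-count minimum (0.0229) among its alternatives, and Mir29c passed in all but edgeR's exact test (adjusted p = 1). Adding multimapping reads to the denominator lowered the levels of Mir29a to 317 CPM, Mir29c to 107 CPM and Mir29b-1 to 2.05 CPM, and the family's share to 0.0427%; this follows from the larger denominator. edgeR's exact test called 5 genes between the libraries in place of 11, all 5 among the 11, and the cause was not tested. Without replicate 2, Mir29b-1 against Mir29b-2 alone gave a log2 ratio of 0.86 with an interval above equality. Without the Mir29b and Mir30c loci, the ratios of the chromosome pairs and of miR-29 to miR-30 kept their direction; Mir30b and Mir30d had no mature sequence to check and stayed in. Mir29b-1 and Mir29b-2, under 10 reads in replicate 2, had no value under the minimum of 10 counts. Depth in replicate 2 limits what can be said of both. No paired analysis was possible because the design has 1 group.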

Other observations

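Outside miR-29b-3p, 1 of the other different mature sequences in the RefSeq table ended in AGUGUU, the 5p arm of Mir92b. Mir92b, looked up after its sequence was found, had 175 and 128 CPM in replicates 1 and 2, a log2 ratio of -0.45 (exact binomial test, adjusted p = 3.35e-06), and the deposited counts do not say which arm was read. The seed of miR-29b-2-5p, UGGUUUC, recurred in Mir6338, which had 0 reads in both libraries. The seeds of miR-29a-5p, miR-29b-1-5p and miR-29c-5p each occurred in a single gene.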
